A study of Mus musculus with 13 samples.

Results

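The Reg family encodes small secreted proteins with a C-type lectin domain, and 5 of its mouse genes are described here: Reg1, Reg3a, Reg3b, Reg3g and Reg4. Each gene was represented by 1 transcript cluster of the array that names it alone, taken from the platform annotation, out of 19938 genes tested. The other Reg genes on the array, Reg2 and Reg3d, were read beside them. Transcripts were measured in 13 rectal tissue samples from mice on Affymetrix gene arrays of the ST design. The samples were 5 adenocarcinomas, 4 samples of inflamed mucosa next to tumours, and 4 samples of normal rectal mucosa. Tumours and inflamed mucosa came from rectal prolapses of α6fl/fl Villin-Cre mice, in which Cre made from the villin promoter deletes the floxed α6 integrin allele in intestinal epithelial cells and leaves other cells unaltered. Normal mucosa came from matched control mice, although the genotype field of the labels gives all samples the floxed Villin-Cre genotype. The tumour mice were 53, 60, 60, 64 and 80 weeks old (2 females and 3 males), the mice with inflamed mucosa 53, 60, 60 and 64 weeks (1 female and 3 males), and the control mice 53, 60, 64 and 70 weeks (2 females and 2 males). Tumour and inflamed tissue were dissected from frozen sections, whereas normal mucosa was scraped, so tissue and collection cannot be told apart in comparisons with normal mucosa. Within each group the ages and sexes tell the mice apart, except for the 60-week males of numbers 2 and 3 among the tumours and the inflamed samples, which the labels do not state to be separate mice. Nor do they state whether a tumour and an inflamed sample of 1 number came from 1 mouse.

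The values are the authors' RMA values, on a log2 scale where 1 unit is a doubling, and a gene was called where its limma p, adjusted over all genes by Benjamini-Hochberg, was below 0.05. Krt8, a keratin of gut epithelium, read 13.22 to 13.41 on all 13 arrays, near the top of the scale. The mean over 9 epithelial genes, Krt8 among them, was 12.05 to 12.21 in normal mucosa. It was 11.97 to 12.01 in tumours and 11.74 to 11.90 in inflamed mucosa. Some arrays stood apart in other cell types. Squamous Krt5 (named, like Krt8, after its values were seen) read 11.17 and 10.70 in adenocarcinomas 2 and 3 and 12.10 in normal mucosa 1, against at most 7.38 on the other 10 arrays. The mean over 9 smooth muscle genes was 8.72 to 9.03 in tumours, 10.40 to 11.43 in inflamed mucosa and 6.54 to 8.15 in normal mucosa, highest there in normal mucosa 6. It was higher in all prolapse samples than in all normal samples.

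Reg3 lectins are released by intestinal epithelial cells into the mucus. In mice, Reg3g binds the peptidoglycan of Gram-positive bacteria and kills them, and Reg3b acts on Gram-negative bacteria. Both genes are induced through microbial sensing by MyD88 and through the cytokine IL-22, whose receptor signals by STAT3. Reg4 marks secretory cells deep in the crypts of the mouse colon and is also found in enteroendocrine cells, and its human counterpart is often raised in colorectal cancers. Reg1 and Reg2 are best known from pancreatic acinar cells, and in mice Reg3d is also a pancreatic gene.

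Of the 7 Reg genes, all but Reg4 stand side by side on mouse chromosome 6 with no other protein-coding gene among them in the RefSeq annotation of GRCm38.p6, while Reg4 lies on chromosome 3. The bases upstream of the transcription start are shown for Reg3b and Reg3g, the members whose transcript was high in the tumours, and for their neighbour Reg3a, whose transcript was low on all 13 arrays. They are 250 bases each from RefSeq (GRCm38.p6), 5′ to 3′ on the strand of the gene. Capitals mark matches on either strand to TTCNNNGAA, the consensus bound by STAT proteins, and to TATAAA, the TATA box core. The windows are chr6:78370635-78370884 (plus strand), chr6:78468875-78469124 (minus strand) and chr6:78380459-78380708 (plus strand).
Reg3b: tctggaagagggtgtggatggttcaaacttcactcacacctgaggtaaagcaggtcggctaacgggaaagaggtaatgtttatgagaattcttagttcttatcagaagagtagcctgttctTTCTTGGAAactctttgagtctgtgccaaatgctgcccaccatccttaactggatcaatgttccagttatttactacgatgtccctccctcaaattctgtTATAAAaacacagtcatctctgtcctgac
Reg3g: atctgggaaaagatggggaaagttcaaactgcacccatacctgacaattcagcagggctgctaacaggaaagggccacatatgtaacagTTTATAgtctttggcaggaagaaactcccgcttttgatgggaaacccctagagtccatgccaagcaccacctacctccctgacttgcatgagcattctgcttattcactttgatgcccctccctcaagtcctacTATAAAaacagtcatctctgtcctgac
Reg3a: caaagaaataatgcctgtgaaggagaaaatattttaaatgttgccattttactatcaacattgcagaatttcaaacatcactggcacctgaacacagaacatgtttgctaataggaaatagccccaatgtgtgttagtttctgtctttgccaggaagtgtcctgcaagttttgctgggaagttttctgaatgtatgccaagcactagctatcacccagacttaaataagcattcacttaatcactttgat
The TATAAA nearest the start began 29 bases before it in Reg3b and 27 bases before it in Reg3g. The Reg3a window held 0 matches to either motif. The STAT consensus was present 1 time in Reg3b and 0 times in Reg3g. Other Reg genes low on these arrays held the motifs too. The Reg3d window had 1 STAT consensus, and Reg1 and Reg2 each had a TATAAA beginning 30 bases before the start. The Reg4 window held 0 matches to either motif. The motifs thus did not set Reg3b and Reg3g apart from the low Reg genes. Of 32851 RefSeq promoter windows of this length, 7.02% held TTCNNNGAA and 12.4% held TATAAA, so the letters alone are common. In global alignments of the 7 Reg windows, Reg3b and Reg3g were identical at 68.9% of aligned columns, against 47.8% to 58.5% for the other 20 pairs. Their longest shared run was the last 20 bases before the start, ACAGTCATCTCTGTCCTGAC, whereas no other pair shared a run over 12 bases. These matches describe the letters and say nothing about which factors bind there.

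The bactericidal lectins Reg3b and Reg3g were high in every adenocarcinoma and low in both kinds of tissue without tumour. Reg3b (cluster 10539179) reached 8.36, 8.07, 10.60, 10.04 and 9.53 in adenocarcinomas 1, 2, 3, 4 and 6. It read 5.44, 4.82, 4.83 and 5.14 in inflamed mucosa 1 to 4, and 5.15, 5.31, 4.87 and 4.96 in normal mucosa 1, 2, 4 and 6. The lowest tumour thus lay far above the highest array of either other tissue, and inflamed and normal mucosa overlapped. Reg3g (cluster 10545569) reached 8.94, 8.71, 11.09, 11.03 and 10.53 in the same 5 tumours. In inflamed mucosa 1 to 4 it read 6.37, 5.57, 5.42 and 5.73, and in normal mucosa 1, 2, 4 and 6 it read 6.10, 5.40, 5.10 and 5.37. For Reg3g, too, all tumours were above all other arrays, and inflamed mucosa 1 and normal mucosa 1 were each the highest of their group.

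**Figure D1:**
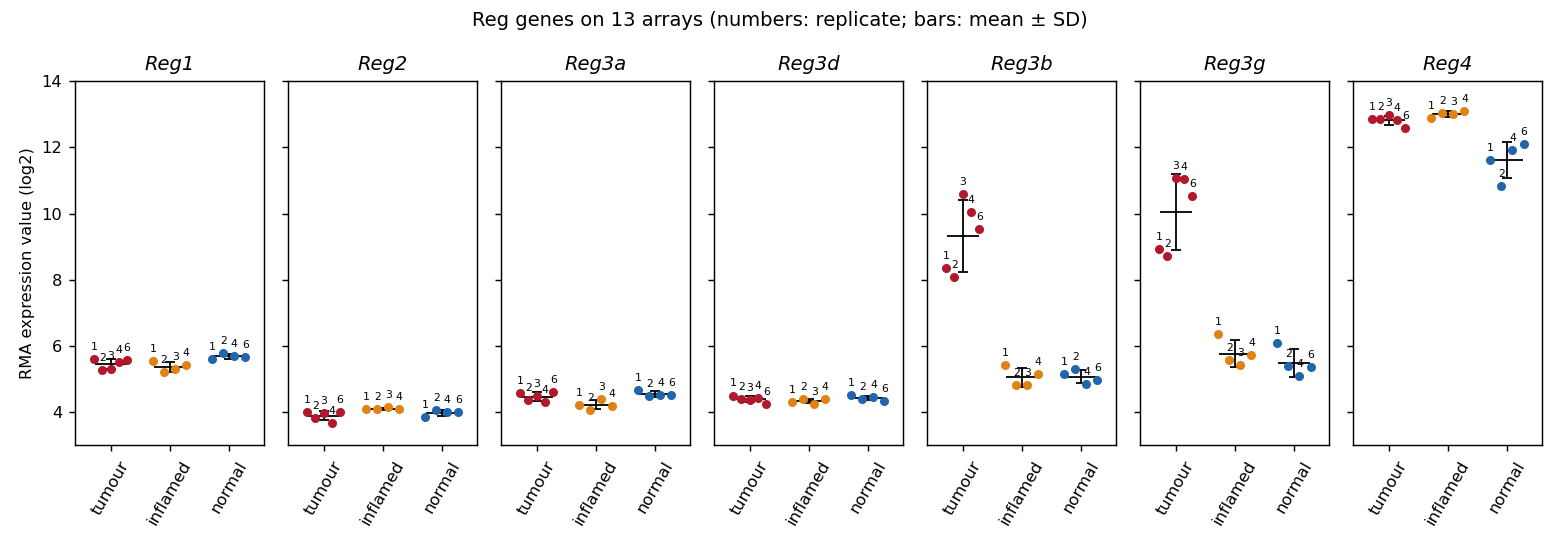
Log2 expression values of the 7 Reg genes on 13 arrays. Points are arrays with their replicate numbers, coloured by tissue, and black bars give the mean ± SD (n = 5 tumours, 4 inflamed and 4 normal samples). Reg3b and Reg3g are high in the tumours alone, Reg4 is high in tumours and inflamed mucosa, and the other 4 genes stay below 6 on all arrays.

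Reg3b averaged 9.32 ± 1.08 in tumours and 5.07 ± 0.20 in normal mucosa (SD, n = 5 and 4), a log2 difference of 4.25 ± 0.41 (SE) or 19.0-fold (95% interval 10.3 to 35.0, limma, adjusted p = 4.77e-06). Reg3g averaged 10.06 ± 1.15 in tumours and 5.49 ± 0.43 in normal mucosa, a log2 difference of 4.57 ± 0.46 or 23.7-fold (95% interval 11.95 to 47.0, limma, adjusted p = 6.79e-06). Both were raised against the mucosa beside the tumours by nearly the same amounts. Inflamed mucosa averaged 5.06 ± 0.29 for Reg3b, from which tumours differed by 4.26 ± 0.41 or 19.2-fold (95% interval 10.4 to 35.4, limma, adjusted p = 6.36e-05, n = 5 and 4). For Reg3g inflamed mucosa averaged 5.78 ± 0.42, and tumours were higher by 4.28 ± 0.46 or 19.5-fold (95% interval 9.83 to 38.7, limma, adjusted p = 0.000126). Ranked by increase over inflamed mucosa, Reg3g and Reg3b stood at 3 and 4 among 19938 genes, and over normal mucosa at 8 and 19. In bulk tissue, more cells that make a transcript and more transcript per cell cannot be told apart.

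Inflamed mucosa showed no detected rise of either gene. The inflamed minus normal difference was -0.02 ± 0.43 for Reg3b (95% interval -0.95 to 0.91, limma, adjusted p = 0.981, n = 4 and 4). For Reg3g it was 0.28 ± 0.48 (95% interval -0.76 to 1.32, limma, adjusted p = 0.668). As folds over normal mucosa, these intervals run from 0.519 to 1.88 for Reg3b and from 0.591 to 2.50 for Reg3g. Both genes read near the background of the array in these tissues. Transcripts absent by sex (Xist in males, Kdm5d, Eif2s3y and Uty in females) read as high as 5.57, though probes differ in background. Reg3b was above that value on 5 of 5 tumour, 0 of 4 inflamed and 0 of 4 normal arrays, and Reg3g on 5 of 5, 3 of 4 and 1 of 4. The tumour folds therefore depend on the background.

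The tumours differed among themselves, and they did so in the same order for both genes. Adenocarcinoma 3 was highest, followed by 4, 6, 1 and 2, and the highest and lowest tumour lay 2.52 apart on the log2 scale for Reg3b and 2.37 apart for Reg3g. This order follows neither the ages (60, 64, 80, 53 and 60 weeks) nor the sexes of the mice. Tumour and inflamed samples of 1 number share a sex and an age in the labels. The tumour minus inflamed difference in Reg3b was 2.92, 3.25, 5.77 and 4.90 for numbers 1 to 4, and in Reg3g it was 2.57, 3.14, 5.66 and 5.30. Every number thus showed the tumour higher, by the least in number 1.

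Reg3b and Reg3g were also the nearest genes to each other. Likeness was measured as the root mean square difference of log2 values over 13 arrays after centring each gene on its mean, and for this pair it was 0.28. Next to Reg3b came Mmp10 (0.77), a stromelysin of the matrix metalloproteinase family, and Itgb8 (0.78), the β8 integrin. Next to Reg3g came Mmp10 (0.78) and Saa3 (0.80), a serum amyloid protein of the acute phase. Mmp10 read 10.72, 11.11, 10.19, 10.999 and 11.19 in adenocarcinomas 1, 2, 3, 4 and 6, so that it was lowest in tumour 3, where the Reg3 genes were highest. Similar sequences can cross-hybridise, and probe sequences were not used here. The clusters of the neighbouring Reg3a and Reg3d did not follow Reg3b and Reg3g, and read at most 4.62 and 4.51 in the tumours. Those values do not bear on whether the Reg3b and Reg3g clusters read each other's transcript, which was not tested.

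**Figure D2:**
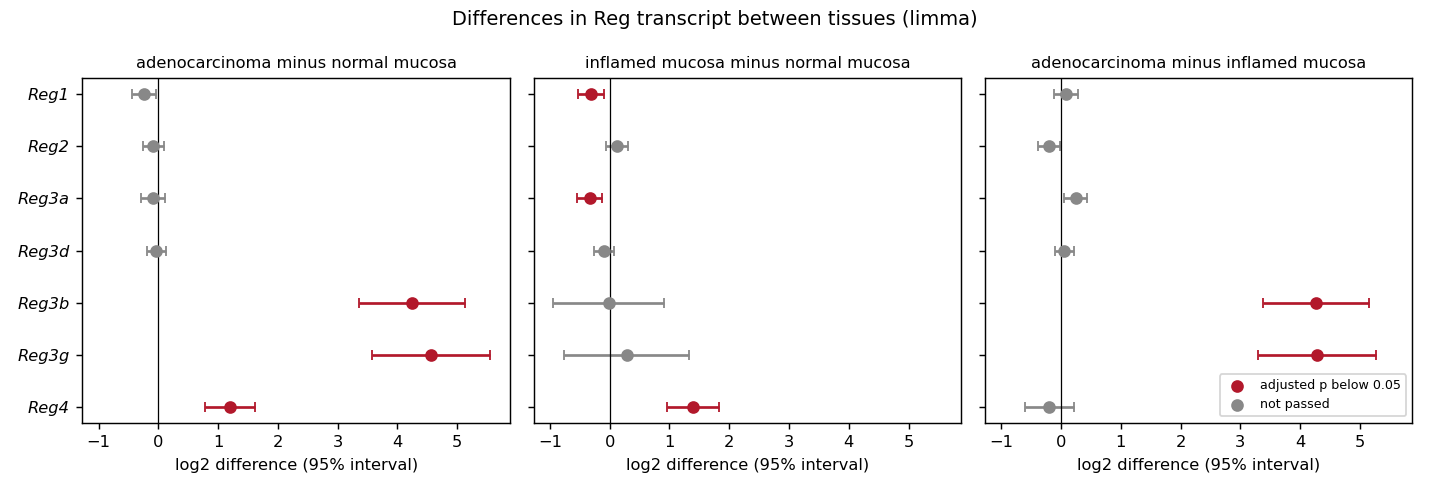
Log2 differences of the 7 Reg genes in the 3 comparisons of tissues, with 95% intervals from limma. Red points have an adjusted p below 0.05 and grey points did not pass. Reg3b and Reg3g lie above 4 wherever tumours are compared, and Reg4 lies above 1 in both comparisons with normal mucosa.

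Reg4 had another pattern: it was higher in tumours and in inflamed mucosa than in normal mucosa, and tumours and inflamed mucosa overlapped. Reg4 (cluster 10494636) reached 12.84, 12.86, 12.97, 12.81 and 12.58 in adenocarcinomas 1, 2, 3, 4 and 6. In inflamed mucosa 1 to 4 it read 12.88, 13.04, 13.01 and 13.10, and in normal mucosa 1, 2, 4 and 6 it read 11.60, 10.84, 11.91 and 12.11. All 9 prolapse arrays were above all 4 normal arrays, among which normal mucosa 2 was lowest. Means were 12.81 ± 0.14 in tumours, 13.01 ± 0.09 in inflamed mucosa and 11.61 ± 0.56 in normal mucosa (SD, n = 5, 4 and 4). The tumour minus normal difference in Reg4 was 1.20 ± 0.19 or 2.29-fold (95% interval 1.72 to 3.06, limma, adjusted p = 0.00035). Inflamed minus normal it was 1.39 ± 0.20 or 2.62-fold (95% interval 1.94 to 3.55, limma, adjusted p = 0.000265). Tumour minus inflamed it was -0.19 ± 0.19 and did not pass (95% interval -0.61 to 0.22, limma, adjusted p = 0.70). In all 4 same-numbered pairs the tumour read slightly lower, by between 0.04 and 0.29. The highest value of any cluster lay between 13.67 and 14.01 on these arrays, so Reg4 was read near the top of the scale.

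Genes most like Reg4 over the 13 arrays were Ube2q2, a ubiquitin-conjugating enzyme, Aldh18a1, an enzyme of proline synthesis, and Tmem176b, a membrane protein, each at 0.15 to 0.16. Genes of the secretory cells known to carry Reg4 did not all move one way. Of 13 goblet and deep crypt secretory genes measured, 5 rose and 0 fell in inflamed mucosa, and 3 rose and 2 fell in tumours (limma), both against normal mucosa. Over all genes, 13.7% rose and 13% fell in inflamed mucosa, and 16.4% rose and 19.4% fell in tumours. In tumours the list was thus called about as often as all genes. In inflamed mucosa 0 of the 13 were lower at an unadjusted p below 0.05. Some of the calls were fragile. Without normal mucosa 1 the rise of Agr2 missed the threshold in tumours and in inflamed mucosa (limma, adjusted p = 0.15 and 0.0843). That of Galnt12 in inflamed mucosa did so too (0.0795). The fall of Clca1 in tumours missed it without adenocarcinoma 4 (0.0579). The median differences of the list were 0.23 and -0.01, against -0.09 and -0.10 over all genes. Spink4, a protease inhibitor of goblet cells, rose by 1.69 ± 0.12 in inflamed mucosa and by 1.71 ± 0.12 in tumours (limma, adjusted p = 1.27e-06 and 2.48e-07). The main colonic mucin Muc2 differed by 0.18 ± 0.11 and 0.15 ± 0.10 in the same comparisons and did not pass. Kit, a receptor found on deep crypt secretory cells and on mast cells and pacemaker cells of the gut wall, rose by 0.72 ± 0.18 in inflamed mucosa (adjusted p = 0.00909). In tumours Kit was -0.28 ± 0.17 from normal mucosa and did not pass. Atoh1, the transcription factor that sets the secretory fate, fell in tumours by 1.06 ± 0.13 (adjusted p = 3.16e-05), on the arrays where Reg4 was raised.

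Enteroendocrine genes did not rise with Reg4 in the tumours. Of 12 measured, 0 rose and 6 fell against normal mucosa (limma, 0 higher at an unadjusted p below 0.05), where 16.4% and 19.4% of all genes did. The granule protein Chga fell by 0.74 ± 0.16 (adjusted p = 0.00321). In inflamed mucosa 2 rose and 1 fell (13.7% and 13% of all genes), and the glucagon gene Gcg rose by 0.80 ± 0.14 (adjusted p = 0.00107). Some of the enteroendocrine calls were fragile. The falls of Gcg, Insl5 and Sct in tumours missed the threshold without adenocarcinoma 2 (limma, adjusted p = 0.0997, 0.09 and 0.0649). In inflamed mucosa the rise of Scg2 and the fall of Sct did so without inflamed mucosa 2 (0.0587 and 0.0674). Of 9 genes shared by gut epithelial cells, 1 rose and 3 fell in tumours, and 0 rose and 5 fell in inflamed mucosa (limma, 0 higher there at an unadjusted p below 0.05). Their mean log2 value was 11.97 to 12.01 in tumours, 11.74 to 11.90 in inflamed mucosa and 12.05 to 12.21 in normal mucosa. Of 9 genes of mature colonocytes, the absorptive cells of the surface, 9 fell in tumours and 6 in inflamed mucosa, and 0 rose in either (limma, 0 at an unadjusted p below 0.05). How far tissue makeup, the smooth muscle content given above included, and collection enter the difference in Reg4 was not tested.

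**Figure D3:**
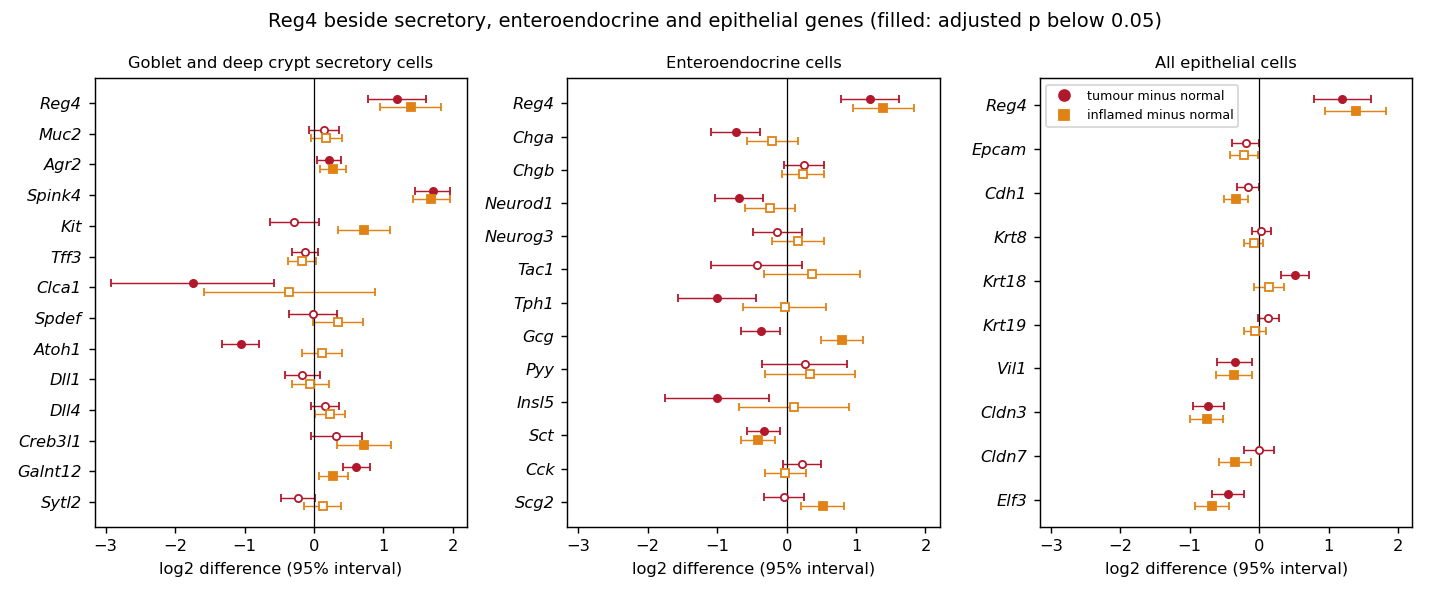
Log2 differences (95% intervals, limma) against normal mucosa for Reg4, repeated at the top of each panel, and for goblet and deep crypt secretory, enteroendocrine and epithelial genes. Circles are tumours, squares are inflamed mucosa, and filled symbols have an adjusted p below 0.05. Spink4 lies as high as Reg4 in both tissues, while Atoh1 and Chga fall in tumours.

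Reg1 and Reg3a were low on every array. Reg1 (cluster 10539200) read 5.61, 5.29, 5.32, 5.51 and 5.57 in the tumours, 5.56, 5.22, 5.30 and 5.43 in inflamed mucosa, and 5.62, 5.79, 5.71 and 5.67 in normal mucosa. Reg3a (cluster 10539186) lay between 4.30 and 4.62 in tumours, 4.07 and 4.40 in inflamed mucosa, and 4.50 and 4.69 in normal mucosa. In inflamed mucosa against normal mucosa both fell, at -0.32 ± 0.10 for Reg1 and -0.33 ± 0.10 for Reg3a (limma, adjusted p = 0.0325 and 0.0221, n = 4 and 4), with all inflamed arrays below all normal arrays. Reg1 was above the highest value of transcripts absent by sex on 2 of 5 tumour, 0 of 4 inflamed and 4 of 4 normal arrays, and Reg3a on 0 of 13. The differences were small and the calls fragile. The call of Reg1 ended without inflamed mucosa 2, 3 or 4 (adjusted p = 0.102, 0.070 and 0.0516), without normal mucosa 2 or 4 (0.0832 and 0.0552), and with the replicate number as a block (-0.27, adjusted p = 0.0904). That of Reg3a ended without inflamed mucosa 2 or 4 (adjusted p = 0.0746 and 0.0511) or normal mucosa 1 (0.0595). With cyclic loess scaling both calls ended (adjusted p = 0.15 and 0.13). Against normal mucosa, tumours differed by -0.23 ± 0.09 in Reg1 and -0.09 ± 0.09 in Reg3a and neither passed (limma, adjusted p = 0.0668 and 0.453), although Reg1 passed without adenocarcinoma 1 (-0.27, adjusted p = 0.0428). The nearest profiles to these flat genes were Pde6h, Ankdd1a and Slc22a6 for Reg1 and Chrna6, Kcnk7 and Dhx32 for Reg3a, at 0.05 to 0.09.

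The remaining family members were low on every array too. Reg2 lay between 3.68 and 4.15 and Reg3d between 4.25 and 4.51 over the 13 arrays, and neither passed in any of the 3 comparisons (limma, adjusted p at least 0.185). Unlike Reg1 and Reg3a, Reg2 read higher in inflamed than in normal mucosa, by 0.12 ± 0.09, with the groups not overlapping, but did not pass (adjusted p = 0.30). Of 10 pancreatic acinar genes measured, 0 rose in tumours or inflamed mucosa (limma, 0 higher at an unadjusted p below 0.05), and 3 and 2 fell (19.4% and 13% of all genes). The trypsinogen Prss2 read between 5.56 and 6.23 on the 13 arrays.

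Counted over the members, 3 of 5 were called in tumours against normal mucosa, where 35.8% of all genes were called, and all 3 were higher (16.4% of all genes were higher and 19.4% lower). In inflamed against normal mucosa 3 of 5 were called, against 26.7% of all genes, with 1 higher and 2 lower (13.7% and 13% of all genes). Between tumours and inflamed mucosa 2 of 5 were called, against 7.12% of all genes, and both were higher in tumours (2.91% of all genes were higher and 4.21% lower). The median difference of the members was 1.20, -0.02 and 0.25 in these comparisons, against -0.10, -0.09 and -0.01 over all genes. Each pair of comparisons shares the arrays of 1 tissue. The balance of directions over all genes moved with scaling. Of the called genes, 45.8%, 51.3% and 40.9% were higher, against 22.4%, 16.5% and 51.2% with arrays centred on the median of the tested genes, which moved the median difference of all genes by -0.14, -0.19 and 0.05. With that centring Reg3b, Reg3g and Reg4 kept their calls.

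Cytokines known to induce Reg3 genes, and others related to them, were read from the same arrays, leaving out Il22, which has no cluster of its own here. Of 10 ligands of the IL-6, IL-17 and related families, 5 rose and 2 fell in tumours against normal mucosa, 0 rose and 2 fell in inflamed mucosa, and 3 rose and 0 fell in tumours against inflamed mucosa. At an unadjusted p below 0.05, 0 were higher in inflamed than in normal mucosa and 0 lower in tumours than in inflamed mucosa (limma). Over all genes, the shares that rose and fell in the 3 comparisons were 16.4% and 19.4%, 13.7% and 13%, and 2.91% and 4.21%. Il11, an IL-6 family cytokine, rose by 1.70 ± 0.24 in tumours (limma, adjusted p = 0.000142) and read 7.11, 7.86, 6.75, 7.94 and 8.16 in adenocarcinomas 1, 2, 3, 4 and 6. Il6, the founding member of that family, read 3.90, 5.54, 3.87, 6.16 and 6.09 in these tumours and between 3.69 and 3.90 in normal mucosa, with which tumours 1 and 3 overlapped, a difference of 1.33 ± 0.42 (adjusted p = 0.026). That call ended without adenocarcinoma 2, 4 or 6 (adjusted p = 0.0601, 0.0607 and 0.057) and without normal mucosa 1 or 2 (0.0502 and 0.0531). Neither gene followed the order of Reg3b and Reg3g among the tumours: tumour 3, the highest in both lectins, was the lowest in Il11 and Il6. Il1b, also on the list, was lowest in tumour 3 too, at 7.49. Il18, on the same list, was instead highest in tumour 3 at 10.31, then in tumour 4 at 9.90, and lowest in tumour 6 at 9.04. Whether any of these cytokines induced the Reg3 genes here was not tested. Il17a, the T cell cytokine that acts with IL-22 on epithelium, fell by 0.33 ± 0.09 in tumours and by 0.32 ± 0.10 in inflamed mucosa against normal mucosa (adjusted p = 0.0128 and 0.0252). It read only 5.51 to 6.13 over the 13 arrays, near the highest value of transcripts absent by sex (5.57), and its call in inflamed mucosa ended without inflamed mucosa 2 or 4 (adjusted p = 0.0828 and 0.0512) or normal mucosa 1 or 2 (0.0558 and 0.0613).

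Receptors of IL-22, of the IL-6 and IL-17 families and of related cytokines, as a list, were called about as often as all genes in tumours. Receptors of Il1b and Il18 were not on that list. Of 11 measured, 2 rose and 3 fell in tumours against normal mucosa (16.4% and 19.4% of all genes). In inflamed mucosa 3 rose and 4 fell (13.7% and 13% of all genes), and 0 passed between tumours and inflamed mucosa (limma, 5 at an unadjusted p below 0.05, all lower in tumours). Il22ra1, the epithelial subunit of the IL-22 receptor, fell by 1.20 ± 0.13 in tumours and by 0.87 ± 0.13 in inflamed mucosa (adjusted p = 9.5e-06 and 0.000394). Osmr, the oncostatin M receptor, rose by 2.56 ± 0.40 and 2.45 ± 0.42, and Il6st, the signalling subunit of the IL-6 family, by 1.57 ± 0.13 and 1.79 ± 0.14. In normal mucosa 1 Osmr read 7.80, against 5.25 to 5.82 in the other normal arrays, though still below every tumour and inflamed array. Of 8 genes of STAT3 signalling and microbial sensing, 3 rose and 0 fell in tumours against normal mucosa (limma, 1 lower at an unadjusted p below 0.05). Stat3 rose by 0.32 ± 0.08 in tumours (adjusted p = 0.0073), and its feedback inhibitor Socs3 by 1.24 ± 0.25 against normal and 1.09 ± 0.25 against inflamed mucosa (adjusted p = 0.00161 and 0.0156). The Socs3 call against inflamed mucosa ended without inflamed mucosa 3 (1.01, adjusted p = 0.0518). Extl3, proposed as a receptor of Reg proteins, rose by 0.33 ± 0.11 in tumours and 0.58 ± 0.12 in inflamed mucosa (adjusted p = 0.0391 and 0.00351). Its call in tumours ended without adenocarcinoma 2, 3 or 4, normal mucosa 1, 2 or 4 or inflamed mucosa 1 (adjusted p = 0.0503 to 0.108).

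**Figure D4:**
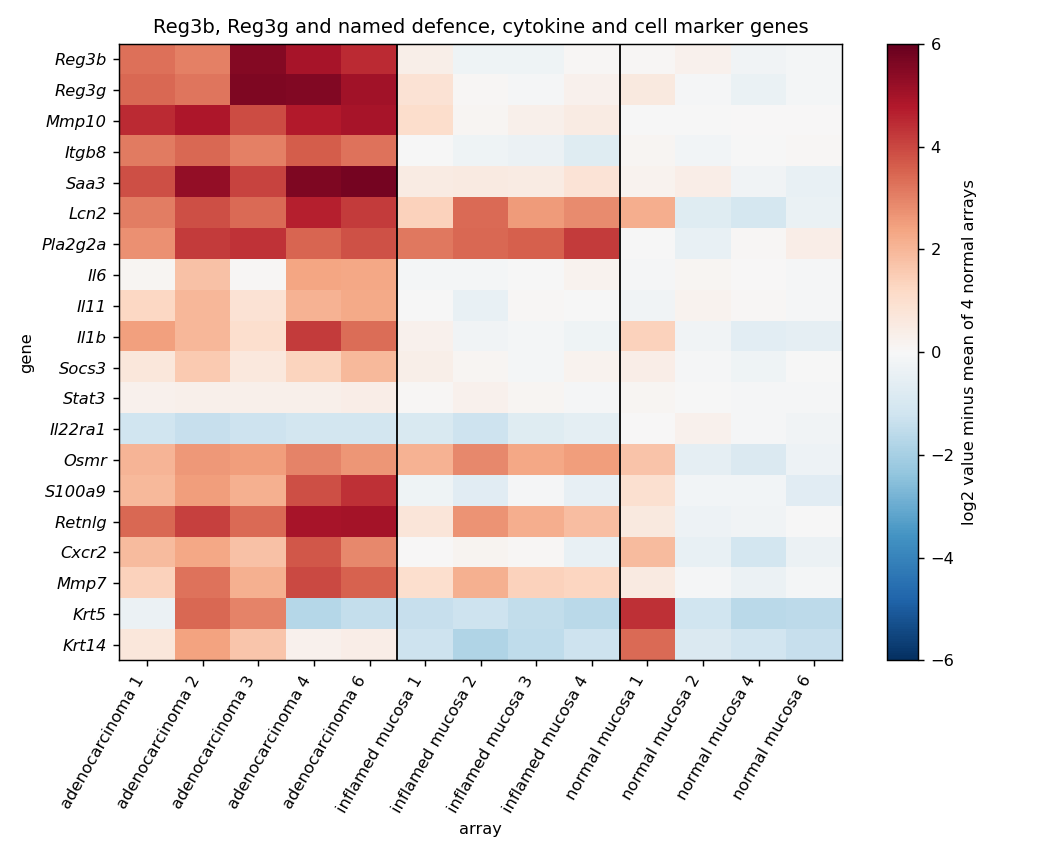
Log2 values of Reg3b, Reg3g and 18 other genes on the 13 arrays, each minus the mean of the 4 normal arrays (red higher, blue lower). Columns are arrays and rows are genes. Reg3b, Reg3g, Mmp10, Itgb8 and Saa3 are high in all tumours and near normal in inflamed mucosa, whereas Pla2g2a and Osmr are high in both, and Krt5 is high on 3 arrays.

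Other antimicrobial and acute phase proteins moved in several ways, and many did not pass. Of 20 measured, 8 rose and 5 fell in tumours against normal mucosa, 4 rose and 2 fell in inflamed mucosa with 14 not passing, and 4 rose and 2 fell in tumours against inflamed mucosa. S100a8 and S100a9, which are also on the list of neutrophil genes, were among the 4 higher in tumours than in inflamed mucosa. The shares of all genes that rose and fell in these comparisons were 16.4% and 19.4%, 13.7% and 13%, and 2.91% and 4.21%. Saa3 rose by 4.92 ± 0.35 in tumours against normal mucosa and by 4.33 ± 0.35 against inflamed mucosa (limma, adjusted p = 3.46e-07 and 1.41e-05), as Reg3b and Reg3g did. The phospholipase Pla2g2a rose by 3.71 ± 0.29 in tumours and 3.59 ± 0.31 in inflamed mucosa against normal mucosa (adjusted p = 7.85e-07 and 3.55e-06), as Reg4 did. Lcn2, which withholds iron from bacteria, rose by 3.84 ± 0.58 in tumours and 2.54 ± 0.61 in inflamed mucosa (adjusted p = 0.000225 and 0.00872). Lcn2 read 8.74 in normal mucosa 1, above inflamed mucosa 1 at 7.96, and 5.50 to 6.16 in the other normal arrays, and without normal mucosa 1 its differences were 4.56 and 3.26. Saa1 fell by 4.88 ± 0.30 in tumours and 2.22 ± 0.32 in inflamed mucosa (adjusted p = 9.79e-08 and 0.000216).

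Markers of other cells varied between the arrays beside the Reg3 genes. Without the 3 arrays high in Krt5, a choice made after seeing the data, the tumour minus normal differences were 4.26 for Reg3b, 4.88 for Reg3g and 1.13 for Reg4, and all passed (limma, adjusted p = 1.19e-05, 2.1e-05 and 0.00895). Without them the tumour minus inflamed differences were 4.25 for Reg3b and 4.39 for Reg3g, and inflamed minus normal Reg4 was 1.39, all called. Against normal mucosa, 16.4% of all genes rose and 19.4% fell in tumours. Neutrophil genes rose in 6 of 11 and fell in 1 in that comparison. Their mean was 7.50 to 8.42 in tumours, 6.42 to 6.68 in inflamed mucosa and 6.35 to 7.55 in normal mucosa. S100a9 was highest in adenocarcinoma 6 at 10.91 and read 8.66 in adenocarcinoma 3. Paneth cell genes rose in 2 of 6, Pla2g2a and Mmp7. The mean of the list was 6.34 to 8.11 in tumours, 6.39 to 7.08 in inflamed mucosa and 5.67 to 5.74 in normal mucosa. The Paneth defensin Defa24, also named afterwards, read 7.83 in adenocarcinoma 2, the tumour lowest in Reg3b and Reg3g, and at most 4.27 in the other tumours. Genes of the Paneth list differed in their order among the tumours. Itln1, named afterwards too, was also highest in adenocarcinoma 2 at 7.27. Pla2g2a was highest in adenocarcinoma 3 at 9.84 and Lyz1 in adenocarcinoma 4 at 10.22, the 2 tumours highest in Reg3b and Reg3g. The part of these cells in the Reg3 differences was not tested.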

How the data were processed

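The deposited table holds log2 values made by the authors with RMA in Expression Console 1.1, after scanning with Command Console 2.0, per the labels and the series' design text. It has 1 column for each of 13 arrays and 1 row per transcript cluster. RMA removes differences in total RNA and compresses those of dim genes. The sources used here name no genome build for the array. Groups and replicate numbers come from the sample titles.

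The platform annotation of 2016 gives exactly 1 gene to 21789 of 35556 clusters, and 21698 of these had an Entrez identifier in RefSeq (GRCm38.p6). Each gene kept its cluster of highest mean, which left 19938 genes. Zc3h12a, another gene with the alias Reg1, was not taken as a member. The test was limma 3.58.1 (R 4.3.3): lmFit over 3 groups in a single fit, then eBayes, two-sided, with Benjamini-Hochberg adjustment over all genes. The code was also run on simulated data, with independent noise and far fewer changed genes than were called here. That run does not bear on the calls reported. Alternatives were other scalings, filters, covariates, array weights, a replicate block and arrays left out.

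Members, lists and named genes (145 of 154 listed symbols measured) were chosen with earlier results of these data known. Genes named in the text are those of smallest adjusted p in each list, genes set for their role (Il22ra1, Il6, Il17a, Stat3, Socs3, Extl3, Muc2, Chga and Prss2), and the 3 nearest profiles per member, with exceptions stated. Same-numbered tumour and inflamed samples had deviations from group means that correlated at 0.319, 0.198, 0.199 and 0.387. Samples of different numbers were not compared in this way, so these values do not establish pairing. For normal arrays the correlations with same-numbered samples were -0.126 to 0.0413. The main test paired no samples. The replicate block, used as an alternative, did group normal arrays with tumour or inflamed samples of the same number, although normal mucosa came from control mice. Array medians were 6.41 to 6.59, and with so few arrays precision is limited by their number. Promoter motifs and alignments used Biopython 1.88 (Python 3.11.15).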

Additional observations from a re-analysis of the deposited data

Results flagged for a closer look

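In normal mucosa, Reg3a on array 1 stood apart from the other 3 arrays at 4.69 on the log2 scale, with a gap to the nearest array of 0.867 of the group's range. It was the only array set apart by Dixon's test at the 95% level among 15 combinations of a member and a tissue, and chance sets apart about 1 in 20. The same array had the highest Krt5 value.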

How the results depend on the processing

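The rises of Reg3b and Reg3g in tumours against normal and inflamed mucosa, and of Reg4 in tumours and inflamed mucosa against normal mucosa, kept their direction and passed under all 27 alternatives for Reg4 and under 26 for Reg3b and Reg3g. The filter on dim genes is not counted for those, since they passed it on a mean that includes the tumours. Leaving out 1 array at a time gave 3.93 to 4.56 and 4.31 to 4.90 for Reg3b and Reg3g in tumours against normal mucosa, and 0.94 to 1.36 for Reg4. The small differences of dim members did not hold as well. Reg1 in inflamed against normal mucosa missed the threshold with the replicate block (-0.27), with these 2 groups alone (-0.32), with cyclic loess (-0.17) and with array weights (-0.29). Leaving out arrays gave -0.38 to -0.26 for Reg1, -0.39 to -0.28 for Reg3a and -0.14 to 0.0636 for Reg3b, and 1 to 3 members called. Reg3a missed it with cyclic loess (-0.19) and without the 3 arrays with squamous transcripts (-0.29), and in tumours against normal mucosa it turned to 0.0666 with cyclic loess. The near-zero Reg3b difference in inflamed mucosa turned to 0.0205 with age as a covariate, 0.02 with cyclic loess, 0.091 with array weights and 0.0109 without those 3 arrays. With cyclic loess, and without the dimmest genes, which leaves Reg1 and Reg3a out of the test, 1 member was called there. In tumours against normal mucosa Reg1 passed when arrays were centred on the median of the tested genes (-0.37), and its value lay between -0.27 and -0.19 with 1 array left out. That centring raised the genes called to 11103 in tumours and 11385 in inflamed mucosa against normal mucosa. Without the 3 arrays 4471 were called in tumours against normal mucosa. Between tumours and inflamed mucosa 2296 were called with array weights. With 1 array left out, 3524 to 5786 were called in inflamed against normal mucosa (3524 without inflamed mucosa 2) and 775 to 1652 in tumours against inflamed mucosa (775 without inflamed mucosa 2, 857 without inflamed mucosa 4). Main counts were 7133, 5322 and 1420. The block changed no other member's call. The 3-array and tested-gene settings, and the listed genes with 1 array left out, were chosen after seeing the data. Where no cause is given, the cause was not tested.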
